A study of Mus musculus with 7 samples.

Results

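Connexins are the subunits of gap junctions, and 7 connexin genes named by symbol were taken from the 22880 genes measured in the optic nerve, a white matter tract of the central nervous system. They were Gja1, Gjb6 and Gjb2, the connexins of astrocytes, Gjb1 and Gjc3, which belong to oligodendrocytes (OLs), and Gja4 and Gjc1, which belong to vessels. Nerves were taken at P14 from 4 control mice, Cre-negative and homozygous for a floxed Fasn allele (Fasn lox/lox), and from 3 mutant mice that were also Fasn lox/lox and carried Cre under the Olig2 promoter. Floxed Fasn was thus shared by both groups, both nerves of 1 mouse gave 1 sample, and the Cre line was on C57Bl/6, to which the floxed line had been backcrossed. Olig2 is active in the OL lineage, and Cre driven by it is not limited to mature OLs, and recombination in other descendants of Olig2-expressing cells was not measured here. Each value is an FPKM, a read count per unit of transcript length and of library depth, and is a mean over all cells of the nerve. A change in the number of cells of a type and a change of RNA per cell cannot be told apart.

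Each connexin spans the membrane and 6 of them are known to make up a hemichannel, which docks onto the hemichannel of a neighbouring cell to form a channel for ions and small molecules. Astrocytes are joined to each other by Cx43 (Gja1), Cx30 (Gjb6) and Cx26 (Gjb2). OLs dock onto astrocytes through connexins of their own, among them Cx32 (Gjb1), and this coupled network is known for taking up the potassium that active axons release. Cx29 (Gjc3) lies in the innermost myelin membrane facing the axon, where it is not known to form channels between cells. Cx37 (Gja4) belongs to the endothelium of arteries and Cx45 (Gjc1) to mural cells. Gja1 and Gjb2 are also expressed by cells of the meninges, which surround the nerve.

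The genes are placed on GRCm38 by the deposited table. Gja1 (ENSMUSG00000050953) lies on chromosome 10 from 56377300 to 56390419 on the plus strand. Gjb2 (ENSMUSG00000046352) and Gjb6 (ENSMUSG00000040055) are neighbours on the minus strand of chromosome 14, from 57098600 to 57104702 and from 57123303 to 57133611, with 18600 bases between them. Gjb1 (ENSMUSG00000047797) lies on chromosome X from 101376378 to 101385629 on the plus strand, and Gjc3 (ENSMUSG00000056966) on chromosome 5 from 137953461 to 137963098 on the minus strand. Gja4 (ENSMUSG00000050234) is found on chromosome 4 from 127311421 to 127314039 and Gjc1 (ENSMUSG00000034520) on chromosome 11 from 102799579 to 102819700, both on the minus strand. In the GENCODE annotation of the same build the coding region of each lies in 1 exon, except that of Gjc3, which is split over 2 exons. None of the 7 overlaps another annotated gene on either strand.

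The 250 bases before the start of transcription are shown for the 5 glial members, and their part in the levels of these genes was not tested. They come from RefSeq on GRCm38.p6, which held a start for 6 of the 7 members and several for Gjb1, of which the one furthest downstream is shown. Capitals mark matches, on either strand, to motifs searched by their letters. For the SOX core these were ACAAAG and, as a second form of the motif, ACAATG. The E-box was read as CAGCTG, the GC box of promoters as GGGCGG, the TATA box as TATAAA, and the AP-1 motif as TGANTCA, where N is any base. The windows are chr10:56377050-56377299 for Gja1, chr14:57133612-57133861 for Gjb6, chr14:57104703-57104952 for Gjb2, chrX:101383482-101383731 for Gjb1 and chr5:137963099-137963348 for Gjc3, each on the strand of its gene.
Gja1: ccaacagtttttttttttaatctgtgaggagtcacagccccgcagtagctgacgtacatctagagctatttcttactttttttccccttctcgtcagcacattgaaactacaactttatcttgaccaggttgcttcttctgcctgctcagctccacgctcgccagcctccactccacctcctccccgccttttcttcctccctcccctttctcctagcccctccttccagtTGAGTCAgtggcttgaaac
Gjb6: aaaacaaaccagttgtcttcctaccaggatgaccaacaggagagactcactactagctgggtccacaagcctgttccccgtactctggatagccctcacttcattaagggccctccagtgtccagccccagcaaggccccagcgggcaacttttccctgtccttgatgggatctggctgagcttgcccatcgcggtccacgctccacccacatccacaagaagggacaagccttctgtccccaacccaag
Gjb2: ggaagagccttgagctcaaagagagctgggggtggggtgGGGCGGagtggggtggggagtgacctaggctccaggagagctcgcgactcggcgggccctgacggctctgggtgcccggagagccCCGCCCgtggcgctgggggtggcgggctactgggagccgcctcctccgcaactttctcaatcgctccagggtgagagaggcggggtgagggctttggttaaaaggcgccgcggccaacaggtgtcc
Gjb1: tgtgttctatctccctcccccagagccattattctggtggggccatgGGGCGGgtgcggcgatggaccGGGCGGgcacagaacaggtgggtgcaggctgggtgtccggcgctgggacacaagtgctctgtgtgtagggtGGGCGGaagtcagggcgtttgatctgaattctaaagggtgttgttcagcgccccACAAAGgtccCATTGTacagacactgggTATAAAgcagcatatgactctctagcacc
Gjc3: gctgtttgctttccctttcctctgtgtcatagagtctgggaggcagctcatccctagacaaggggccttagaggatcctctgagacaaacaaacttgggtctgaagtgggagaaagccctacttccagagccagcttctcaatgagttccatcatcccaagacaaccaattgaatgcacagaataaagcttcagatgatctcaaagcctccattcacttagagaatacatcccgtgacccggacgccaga
The Gjb1 window shown held both SOX cores, ACAAAG 57 bases and ACAATG 47 bases before the start. It also held 3 GC boxes and a TATA box at 29 bases. The window of the Gjb1 start furthest upstream held only ACAAAG, at 176 bases, and the remaining Gjb1 windows held no match. Of 32851 promoter windows of this length, 16.5% held ACAAAG, 10.7% ACAATG, 32.7% a GC box and 12.4% a TATA box. Gja1 had an AP-1 match 19 bases before its start, which 6.75% of windows hold. None of the 6 members with a window had an E-box, found in 13.0% of windows, and Gjc1 had no window to search. The Gjb2 window held 2 GC boxes and 18 CpG dinucleotides, a number reached by 21.7% of windows, whereas its neighbour Gjb6 held no match and 5 CpG. Gjc3 held no match either. These are matches of letters and were not tested for binding.

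Libraries held 27452558 to 43460333 reads, recovered from the deposited normalized counts. Fasn, the targeted gene, was measured at 210.3, 169.1, 211.1 and 228.3 FPKM in control samples 1 to 4 and at 69.3, 50.5 and 49.0 FPKM in mutant samples 1 to 3, a log2 fold change of -1.86 (SE 0.138, adjusted p = 0.00312, limma-trend). SE denotes the standard error. Of 13866 genes tested with limma-trend on log2(FPKM + 0.5), 175 were higher in mutant nerves (1.26%) and 188 lower (1.36%) at an adjusted p under 0.05. The split moved to 129 higher and 230 lower with TMM scaling, and the median log2 fold change over all tested genes was 0.05. Defining markers of astrocytes and mature OLs were present in every sample, with Gfap at no less than 1419 FPKM and Mag at no less than 1747 FPKM.

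In control nerves Gjc3 and Gja1 had the highest FPKM of the 7 members, 245 ± 5.81 (SD, n = 4) and 227 ± 24.6 (SD, n = 4), and their samples overlapped. Gjb6 followed at 102 ± 12.7 FPKM, Gjb1 at 57.0 ± 3.14 FPKM and Gjb2 at 33.9 ± 7.23 FPKM, each without overlap with its neighbours in this order. Gja4 and Gjc1 lay near 3 FPKM and overlapped with each other. In mutant nerves Gja1 alone was highest, and Gjc3 overlapped with Gjb6, and Gjb2 with Gjb1.

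All 3 astrocyte connexins had higher means in mutant nerves, with log2 fold changes of 0.64 to 0.71, and 1 of them, Gja1, passed the test. Both OL members had lower means and neither passed. Thus 1 of the 7 members was called higher, where 1.26% of all genes were, and 0 were called lower, where 1.36% were. At an unadjusted p under 0.05 from limma-trend there were 5 members, the 3 astrocyte genes higher and the 2 OL genes lower. Among all 13866 tested genes 3387 reached that level. With the replicate number as a block, a pairing that the labels do not give, 3 members passed, all of them astrocyte connexins. Over all genes 1159 passed with this block. On the recovered reads edgeR passed 2 members, both higher, and 400 genes in all. Every mutant sample lay above every control sample for 2 members, against 12.9% of all genes, and below for 1 member, against 8.26%.

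**Figure D1:**
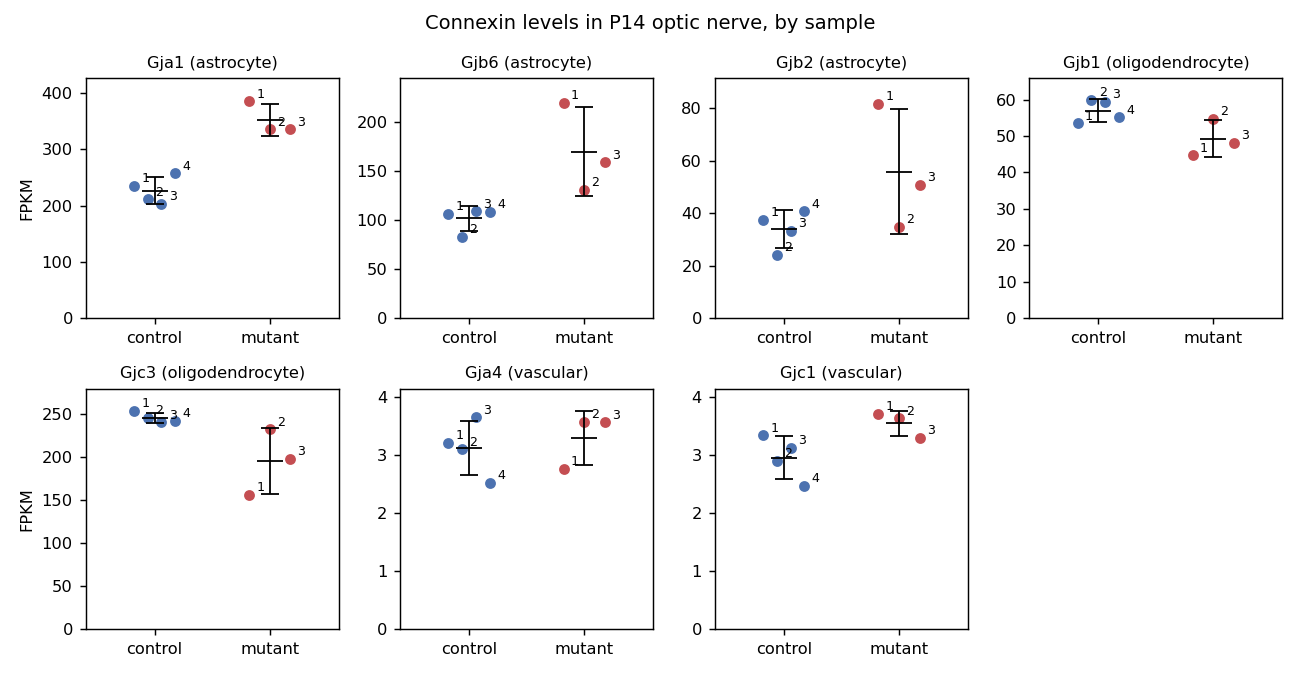
FPKM (vertical axes, each from 0) of the 7 members in control (blue) and mutant (red) samples. Points are mice with their replicate numbers and bars are mean ± SD (n = 4 and n = 3). Mutant sample 1 was highest for Gja1, Gjb6 and Gjb2 and lowest for Gjb1 and Gjc3.

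Gja1, which encodes Cx43, the most abundant astrocyte connexin, rose. Its level was 235.5, 211.5, 202.9 and 257.3 FPKM in control samples 1 to 4 and 385.4, 335.8 and 335.7 FPKM in mutant samples 1 to 3. The groups did not overlap, and mutant samples 2 and 3 were nearly equal. The mutant mean of 352 ± 28.7 FPKM (SD, n = 3) was 155% of that of control nerves, a log2 fold change of 0.64 (SE 0.0952, adjusted p = 0.0214, limma-trend). A two-sided exact permutation test of the single gene gave p = 0.0571, the smallest value that 4 samples against 3 allow. The call rested on single samples, since the adjusted p from limma-trend was 0.0540, 0.0591 and 0.0876 without control samples 1, 2 and 3 and 0.0730 without mutant sample 3, while the log2 fold change stayed between 0.57 and 0.70. It was also lost, at 0.0589, when genes of low expression were kept in the test.

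Gjb6, which encodes Cx30, an astrocyte connexin that appears as astrocytes mature, had 106.3, 82.5, 108.9 and 108.5 FPKM in control samples and 219.1, 130.9 and 158.7 FPKM in mutant samples. All mutant samples lay above all control samples, mutant sample 1 by the widest margin. The mutant mean was 170 ± 45.1 FPKM (SD, n = 3), 167% of control, and the log2 fold change of 0.71 (SE 0.167) had an adjusted p of 0.0606 from limma-trend. With the replicate number as a block the log2 fold change was 0.75 (adjusted p = 0.0235). It also passed without mutant sample 2 (0.88, adjusted p = 0.0298) and on the recovered reads with edgeR (adjusted p = 0.0473) and DESeq2 (adjusted p = 0.000576). In 13 further settings Gjb6 did not pass. Among these, limma-trend gave an adjusted p of 0.133 with no filter on low values and 0.0528 with TMM scaling. With any other single sample left out, the adjusted p from limma-trend was 0.0906 to 0.139.

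Gjb2, which encodes Cx26, had 37.55, 24.08, 33.15 and 40.72 FPKM in control samples and 81.62, 34.75 and 50.78 FPKM in mutant samples. Mutant sample 2 lay within the control range and mutant sample 1 lay far above it. The mutant mean was 55.7 ± 23.8 FPKM (SD, n = 3), and the log2 fold change of 0.65 (SE 0.269) had an adjusted p of 0.182. With the block it was 0.75 (SE 0.119, adjusted p = 0.0251), and without mutant sample 1 it was 0.33 with the groups as the only term, the largest move that leaving out 1 sample made to any of the 3 astrocyte genes. The ratio of Gjb6 to Gjb2 was 2.66 to 3.43 in control samples and 2.68 to 3.77 in mutant samples, so that the ranges of the ratio overlapped while mutant sample 1 was highest for both genes.

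Gjb1, which encodes Cx32, a connexin of the myelin sheath, was measured at 53.5, 59.9, 59.3 and 55.2 FPKM in control samples and at 44.7, 54.7 and 48.2 FPKM in mutant samples. Mutant sample 2 lay within the control range and the others below it. The log2 fold change was -0.21 (SE 0.0800, adjusted p = 0.150). Gjb1 is X-linked, and samples of both groups differed in transcripts of the Y chromosome. Ddx3y and Eif2s3y were at 37.3 to 43.2 FPKM in control samples 3 and 4 and mutant sample 3 and at no more than 0.0568 FPKM in the other 4 samples. The lowest and the highest Gjb1 value of the controls, in samples 1 and 2, both came from the samples low in these transcripts.

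Gjc3, which encodes Cx29, had 252.8, 244.9, 239.8 and 241.3 FPKM in control samples, the smallest relative spread of all members (a coefficient of variation of 2.37%). Its mutant samples had 155.4, 231.6 and 197.1 FPKM, all below the controls, with a coefficient of variation of 19.6%. The log2 fold change was -0.35 (SE 0.117, adjusted p = 0.125), with -0.48 (adjusted p = 0.0357) without mutant sample 2 and -0.19 (adjusted p = 0.242) without mutant sample 1. Mutant sample 2 was the highest of its group for both OL members and lowest for Gjb6 and Gjb2.

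Of 12 further connexins listed here beside the members, 1 reached the minimum for testing. Gja5 (Cx40, of arterial endothelium) had a mean of 0.660 FPKM in control and 0.867 FPKM in mutant nerves (adjusted p = 0.353).

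**Figure D2:**
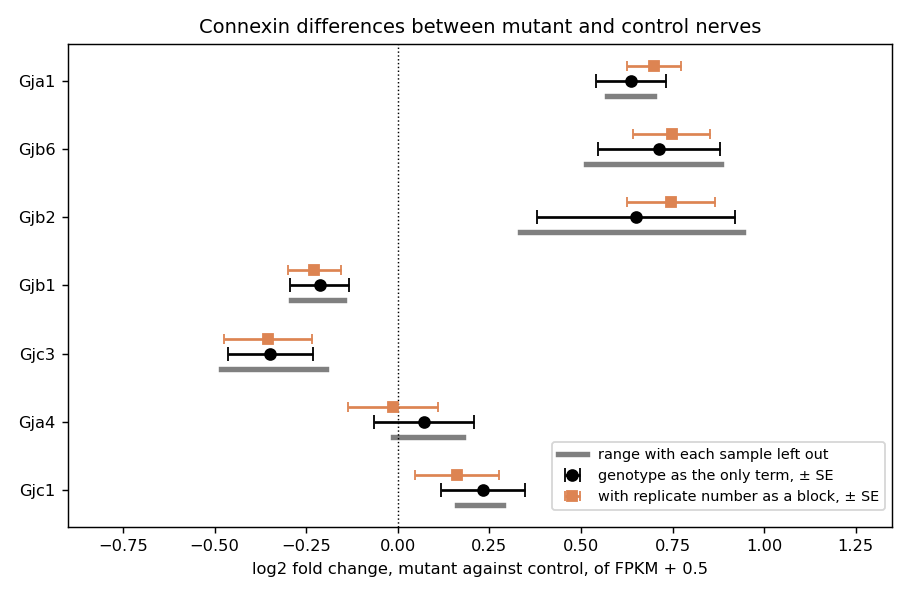
Log2 fold change (horizontal axis, mutant against control, on log2(FPKM + 0.5)) of the 7 members. Black circles show the fit with genotype alone and orange squares the fit with the replicate number as a block, both ± standard error, and grey bars the range with each sample left out in turn. The range of Gjb2 runs from 0.33 to 0.94 and that of Gja1 from 0.57 to 0.70.

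The summed FPKM of the astrocyte connexins was 379.4, 318.1, 345.0 and 406.5 in control samples and 686.1, 501.5 and 545.2 in mutant samples. That of Gjb1 and Gjc3 was 306.3, 304.8, 299.1 and 296.5 in control samples and 200.1, 286.3 and 245.3 in mutant samples. The astrocyte sum was thus 1.04 to 1.37 times the sum of these OL members in control and 1.75 to 3.43 times in mutant nerves. The composition of the astrocyte sum differed little, with Gja1 giving 58.8% to 66.5% of it in control and 56.2% to 67.0% in mutant samples. FPKM of mutant sample 1 lay at the extreme for both classes, and without it the groups of each sum still did not overlap.

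**Figure D3:**
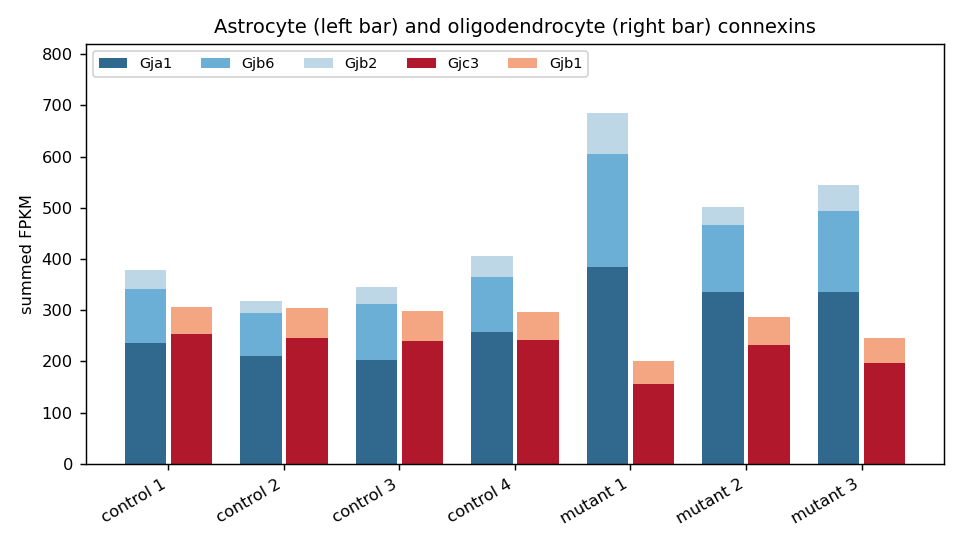
Summed FPKM (vertical axis, from 0) of the astrocyte connexins Gja1, Gjb6 and Gjb2 (left bar, blue) and the OL connexins Gjc3 and Gjb1 (right bar, red) in each sample. The left bar is 1.04 to 1.37 times the right one in control samples and 1.75 to 3.43 times in mutant samples.

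Markers of several cell types moved beside the connexins. Over all tested genes 60.1% had a positive log2 fold change, and their median of 0.05 was -0.0016 with TMM scaling. Of all tested genes 1.26% were called higher and 1.36% lower. Of 12 astrocyte markers 12 had positive log2 fold changes, with a median of 0.41, and 3 rose. These were Slc1a2, a glutamate transporter (0.67, adjusted p = 0.0437), Aldh1l1, an enzyme of folate metabolism (0.55, adjusted p = 0.0214), and Aldoc, a glycolytic enzyme (0.63, adjusted p = 0.0199). Of 12 markers of mature OLs 11 were negative, with a median of -0.22, and transcripts of 2 myelin proteins fell. They were Mag (-0.45, adjusted p = 0.0437) and Cnp (-0.46, adjusted p = 0.0480), neither of which passed with the replicate block (adjusted p = 0.0726 and 0.0605). Each of these calls was lost without control sample 1, 2 or 3 (adjusted p = 0.0514 to 0.148) or without mutant sample 3 (0.0730 to 0.142). Those of Slc1a2 and Cnp were also lost with TMM scaling (adjusted p = 0.0590 and 0.0607) and with edgeR (0.0550 and 0.0645). Of markers of newly formed OLs 3 of 8 fell and of OL progenitors 2 of 7, with medians of -0.37 and -0.27. Other settings were not examined for the calls in these 2 lists. Markers of meningeal fibroblasts were also positive in 8 of 8 genes, with a median of 0.65 and 0 passing, and their summed FPKM was 577 to 990 in control and 925 to 1792 in mutant samples. None of the 8 was at 0 in any sample, and mutant sample 1, with the highest sum, was the sample with the highest Gjb2 and Gjb6. Control sample 2, with the lowest sum, had the lowest Gjb2 and Gjb6. The part of these cell types in the connexin differences was not tested.

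The variation of the astrocyte connexins within the groups was set beside that of these markers. All genes of a sample share its library and dissection. The deviations of log2 values from the group means, over 7 samples, correlated between Gjb2 and Gjb6 with r = 0.974. With the mean of the meningeal markers r was 0.941 for Gjb2 and 0.937 for Gjb6. With the astrocyte markers the values were -0.456 and -0.555. At least as far from 0 were the values for markers of newly formed OLs, -0.941 and -0.974. Somewhat nearer to 0 were -0.884 and -0.866 for markers of mature OLs and 0.838 and 0.910 for the connexin partners described further on. Without mutant sample 1, over 6 samples, Gjb2 had r = 0.859 with the meningeal and 0.798 with the astrocyte markers, and Gjb6 had 0.834 and 0.600, so that the negative values with the astrocyte markers rested on that sample. For Gja1 the values were 0.693 with the meningeal and -0.191 with the astrocyte markers, and 0.539 and 0.773 without mutant sample 1. Gjb1 and Gjc3 deviated with the mature OL markers, with r = 0.884 and 0.882 over 7 samples, but not with these alone. For the same genes markers of newly formed OLs gave 0.793 and 0.897, meningeal markers -0.881 and -0.736, and astrocyte markers 0.359 and 0.721. Without mutant sample 1, Gjb1 and Gjc3 had r = 0.797 and 0.904 with mature OL markers and -0.786 and -0.0855 with meningeal markers. Their values with astrocyte markers changed sign, to -0.725 and -0.561, so that the positive values rested on that sample. These correlations describe few samples and were not tested.

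**Figure D4:**
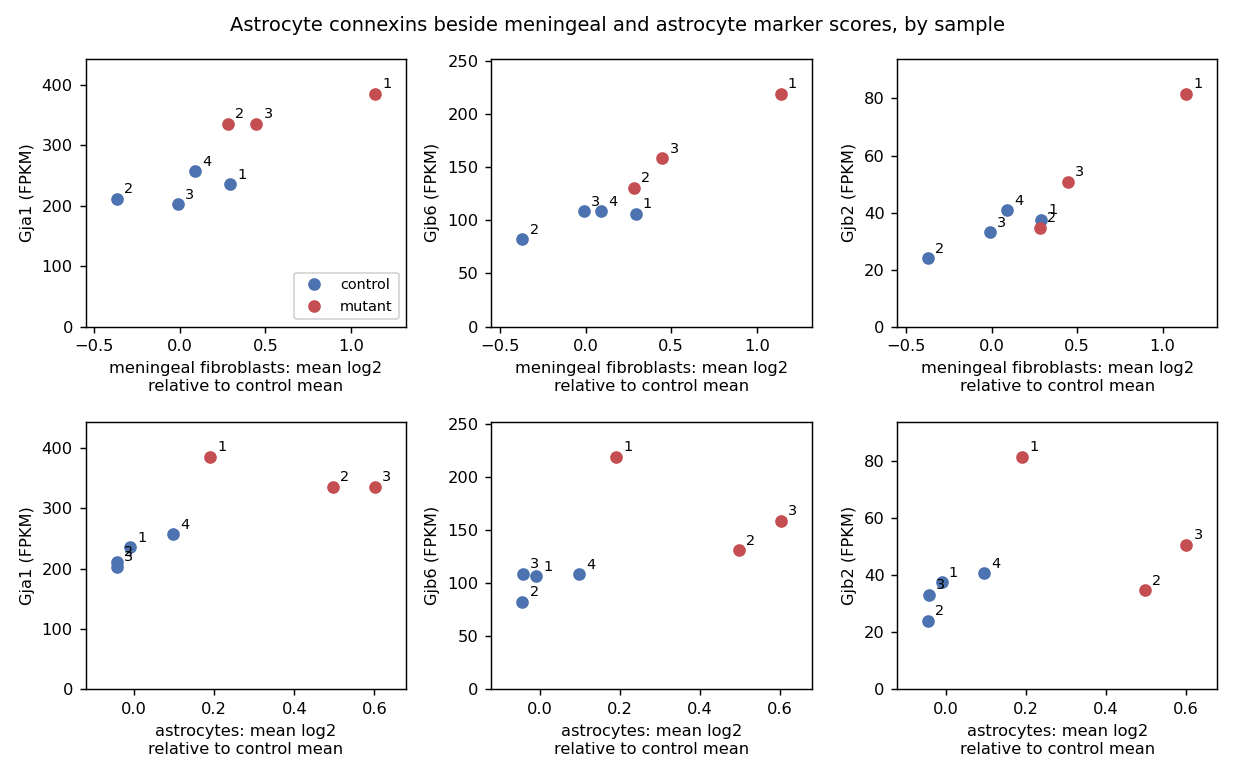
FPKM of Gja1, Gjb6 and Gjb2 (vertical axes, from 0) against the mean log2(FPKM + 0.5) of meningeal fibroblast markers (top) and astrocyte markers (bottom), relative to the control mean, in control (blue) and mutant (red) samples with their replicate numbers. Mutant sample 1 has the highest meningeal score and the lowest astrocyte score of the mutant samples.

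Genes that work beside connexins were listed as well. Of 12 genes for the handling of potassium and water 10 had positive log2 fold changes, with a median of 0.32, and 1 rose. This was Dtna, a protein of the dystrophin complex, at 32.0 ± 1.53 (SD, n = 4) and 44.2 ± 6.23 FPKM (SD, n = 3) with a log2 fold change of 0.45 (adjusted p = 0.0439). Its call was lost with TMM scaling (adjusted p = 0.0769) and with samples left out (adjusted p up to 0.131). Aqp4, Slc4a4 and Atp1b2 stand in this list and among the astrocyte markers. Of 10 genes whose proteins bind or regulate connexins 0 passed limma-trend and 1, Nov, had an unadjusted p under 0.05. The smallest p-values among them were those of Nov, a secreted protein that binds Cx43, with 84.7 ± 32.1 and 160 ± 61.5 FPKM (log2 fold change 0.94, adjusted p = 0.160), and Nedd4, a ubiquitin ligase of Cx43, with 0.23 (adjusted p = 0.206). Nov passed with the replicate block (1.02, adjusted p = 0.0274) and had 0.61 (adjusted p = 0.256) without control sample 2. Of the pannexins, which form channels without docking, 2 of 3 were tested and 0 passed. Panx1 had 16.9 ± 1.95 FPKM in mutant and 22.3 ± 3.21 FPKM in control nerves (log2 fold change -0.38, adjusted p = 0.103 with limma-trend and 0.0277 with DESeq2) and Panx2 had a log2 fold change of 0.12 (adjusted p = 0.670).

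The vascular members had low levels. Gja4 had 3.21, 3.10, 3.65 and 2.52 FPKM in control samples and 2.76, 3.57 and 3.57 FPKM in mutant samples, which overlapped, with a log2 fold change of 0.07 (SE 0.137, adjusted p = 0.788). Gjc1 had 3.35, 2.90, 3.12 and 2.47 FPKM in control and 3.71, 3.64 and 3.31 FPKM in mutant samples, with a log2 fold change of 0.23 (SE 0.115, adjusted p = 0.248). These values rested on 133 to 267 reads for Gja4 and 184 to 345 reads for Gjc1, against 25017 to 42776 reads for Gja1. Endothelial markers were positive in 8 of 8 genes with a median of 0.27, and mural markers in 8 of 8 with a median of 0.19, with 0 passing in either list. Medians were 0.04 for 6 arterial markers, 0.13 for 8 microglial markers and 0.06 for 5 tested markers of Schwann cells, again with 0 passing.

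Over the 7 samples the genes whose log2 levels were most like Gja1 were Fam84a (r = 0.991), Ehbp1 (0.990) and Cers6 (0.990), out of 82 genes with r of at least 0.95. For Gjb1 they were Cdip1 (0.987), Gdpd1 (0.986) and Shisa4 (0.986). On deviations from the group means, which leave out the difference between genotypes, the nearest to Gja1 were Gm14403 (0.993), Pi4k2a (0.992) and Atf7ip (0.987) and the nearest to Gjb1 were Shisa4 (0.995), Zfp488 (0.992) and Cln3 (0.992). With 7 samples and 13865 genes compared, values of this size are found for many genes.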

How the data were processed

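Both optic nerves of each P14 mouse were sequenced as a stranded, single end mRNA library. The authors aligned the reads to GRCm38 with STAR 2.5.1b and estimated counts with RSEM 1.2.22. The deposited table of 22880 genes holds a normalized count (signal, an estimated count divided by a size factor of the sample) and FPKM for each sample, beside the authors' log2 ratio, p-value and FDR, which were not used. Whether counting used the strand is not given in the sources used here.

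Testing used limma-trend (limma 3.58.1, R 4.3.3) on log2(FPKM + 0.5) for the 13866 genes that reached an FPKM of 0.5 in 3 or more samples. Genotype was the single term and p-values were adjusted by Benjamini-Hochberg at 0.05, a scale that understates changes of low genes. Whole reads were recovered from the steps of low normalized counts, where 75.8% to 81.0% of values between 0.5 and 10 reads came out whole within 0.05 reads, and served for depth and for edgeR 4.0.16, which called 400 genes, and DESeq2 1.42.0. Replicates of a group differed by more than sampling noise, with a median chi-square per gene of 2.14 to 6.37 against 0.455 for noise alone. Same-numbered control and mutant samples tended to deviate together (r = 0.168 to 0.409 over 3 pairs, against -0.353 to 0.205 over 9 others), with ranges that overlapped. This was taken as a hint from the data that the number pairs them, since the labels give a number and no origin. A fit with it as a block was run. Control sample 4 has no mutant of its number, so log2 fold changes with the block rest on the 3 pairs and equal those without control sample 4. Scripts were tested on simulated data.

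Every member is named, with Fasn and, of the lists of other connexins, pannexins, connexin partners and genes of potassium and water handling, those past the threshold or, where none passed, the 2 with the smallest p. Members and lists were chosen with earlier results of these data known. Some genes are not reported here and were left out of the lists of other connexins and of potassium and water handling after their values had been seen.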

Additional observations from a re-analysis of the deposited data

Results flagged for a closer look

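In control samples, the FPKM of Gjb6 in sample 2, 82.5, lay far below the nearest other value of 106.3, by 0.901 of the range of the group. In the same sample Gjb2 made up 7.57% of the summed FPKM of the astrocyte connexins, against 9.61% in the nearest other control sample, by 0.834 of the range. Both exceed Dixon's critical value for 4 samples, which chance passes in about 1 of 20 groups. They were selected for exceeding it, so that rate does not measure how unusual they are. Both also come from control sample 2, and Gjb6 enters both, so they are not independent. Control sample 2 also had the lowest Gjb2 and the lowest sum of meningeal markers.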

How the results depend on the processing

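The signs of Gja1, Gjb6, Gjb2, Gjb1, Gjc3 and Gjc1 held in every setting run. Gja4 had -0.012 in place of 0.07 with the replicate block and without control sample 4. Where 363 genes were past the threshold, 95 were with no filter on low values, 1681 with DESeq2, 1159 with the replicate block, and 6 to 909 with each sample left out in turn. Samples whose loss took the number below 20 were control samples 2 and 3 and mutant sample 3. Among the members the number that passed was 0 with no filter, 2 with edgeR, 2 with DESeq2, 3 with the block and 0 to 3 with samples left out, being 0 without control samples 1, 2 and 3 and mutant sample 3 and 3 without mutant sample 2.

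The log2 fold change of Gja1 was 0.64 with no filter, where its call was lost, and 0.57 to 0.70 with samples left out. Gjb6 had 0.69 with edgeR, 0.69 with DESeq2 and 0.75 with the block, all passing. With samples left out Gjb6 had 0.51 to 0.88 and passed only without mutant sample 2. Gjb2 had 0.75 with the block and 0.33 to 0.94 with samples left out, and Gjc3 had -0.48 to -0.19. Gja4 ranged from -0.012 to 0.18. Apart from these, Nov, Mag and Cnp, the block changed no call among the other genes it was run for, which were the other members, Fasn, Gja5, Panx1, Panx2, Nedd4, Dtna, Slc1a2, Aldh1l1 and Aldoc. Dtna lost its call in 11 of 17 settings. The cause of these moves was not tested. With 4 samples against 3, a single gene cannot reach 0.05 in the exact two-sided test.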
